A study of Arabidopsis thaliana with 72 samples.

Results

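Alkalinity without added bicarbonate was examined here in leaves of the *Arabidopsis thaliana* deme A1(c+) after 3 h of exposure. The 2 libraries of A1(c+) plants at pH 8.3 held by an organic buffer were set against the 2 libraries of A1(c+) plants at pH 5.9, which are 4 of the 24 columns of the deposited expression table and 12 of the 72 samples, since each column sums 3 technical replicates. The deme A1(c+) is labelled as tolerant and comes from a moderately carbonated soil. A second deme, T6(c-), which is sensitive to carbonate, was sampled under the same conditions. Both demes were also sampled after 48 h and with 10 mM NaHCO3 at pH 8.3 (bic). Plants of all groups were 15 days old when the treatments began, so that those sampled at 48 h were older than those at 3 h. They grew in hydroponics in the same nutrient solution, and were natural demes without transgenes or induced mutations. By the study's methods, leaves of several plants were pooled for each replicate, so that the spread between replicates would be a spread between pools.

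In plants, iron becomes poorly soluble at high pH, and leaves hold iron in balance through opposite sets of genes. Ferritins are plastid proteins that store iron, and their transcripts are abundant when iron is in supply. Transcription factors of the bHLH family and iron transporters form the iron deficiency response, which is switched on when iron runs short. Transcripts of both sets are used as readouts of the iron status that a leaf senses.

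After 3 h at pH 8.3, A1(c+) leaves had 42 genes with higher and 354 genes with lower transcript levels than leaves at pH 5.9, among 18603 genes tested. A gene was counted when the Benjamini-Hochberg adjusted p of limma was under 0.05 and the log2 fold change was beyond 1 in either direction. Genes past these thresholds made up 0.226% (higher) and 1.9% (lower) of all genes. The lower genes included the ferritins FER1, FER3 and FER4, genes of anthocyanin synthesis, genes of cell division and leaf growth, and genes of cytosolic ribosomal proteins. The higher genes included the iron transporter OPT3 and 5 loci annotated as uncharacterized, of which 3 had been entered in the iron deficiency list. They also included a jasmonate transcription factor, a deadenylase and calcium-binding proteins, and single genes of wax, glucosinolate and antenna protein formation.

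The direction of the bulk of the genes depended on the scaling. The median log2 fold change of all genes was -0.27 in the deposited values, which are relative to the library total. With TMM factors 95 genes were higher and 112 lower, and with quantile normalization 81 were higher and 65 lower. Changes described here are therefore to be read against a median of -0.27. With the genes split by mean level into 5 parts of equal size, the median was -0.62 in the lowest part (up to 3.77 CPM) and -0.07 in the highest (from 48.8 CPM). Both libraries at pH 8.3 lay below both libraries at pH 5.9 for 9886 genes, which is 53.1% of all genes, and above them for 2460 genes, which is 13.2%.

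**Figure D1:**
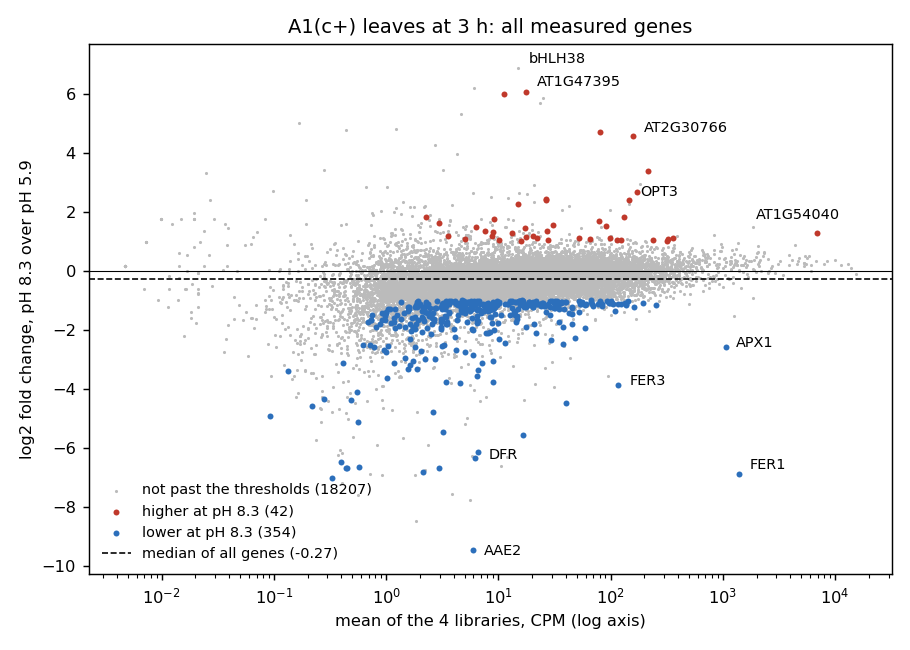
Each point is 1 of 18603 genes, with the mean level in the 4 libraries (CPM, log axis) on the x axis and the log2 fold change of pH 8.3 over pH 5.9 in A1(c+) leaves at 3 h on the y axis; red points are the 42 higher and blue points the 354 lower genes past the thresholds, and the dashed line is the median of all genes (-0.27). The lower genes reach -9.44, while the highest increase past the thresholds is 6.06.

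The 4 libraries held 98.8 to 113.6 M reads, and the 2 pH 8.3 libraries had 17044 and 16849 genes above 1 CPM, against 17641 and 17714 genes in the 2 pH 5.9 libraries. The deme of each library was checked with 19 genes read only in A1(c+) and 26 read only in T6(c-) in other libraries of the series. Above 1 CPM, 19 and 19 of the A1(c+) genes and 0 and 0 of the T6(c-) genes were found in the pH 8.3 libraries, against 18 and 19 of the A1(c+) genes and 3 and 2 of the T6(c-) genes in the pH 5.9 libraries. The second of the libraries labelled A1(c+) bic at 3 h went against its label, with 17 of the T6(c-) genes and 10 of the A1(c+) genes. The library labelled T6(c-) pH 8.3 3 h replicate 2 had all 26 T6(c-) genes and also 8 of the A1(c+) genes, and the library A1(c+) pH 8.3 48 h replicate 1 had 5 of the T6(c-) genes. No root marker of the 8 listed passed the deposited filter on low values, and the 6 mesophyll markers were read at high levels in all 4 libraries, with no member past the thresholds and a median of 0.29 on the log2 scale (0.57 with TMM factors and 0.07 with quantile normalization). RBCS1A, the small subunit of the CO2-fixing enzyme Rubisco, had 14733 and 14675 CPM at pH 8.3, against 17907 and 14111 CPM at pH 5.9.

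The 3 ferritin genes FER1, FER3 and FER4 had the lowest fold changes of the measured iron genes at pH 8.3. FER1, on chromosome 5 (227953 to 230051, minus strand, TAIR10.1), had 29.5 and 18.1 CPM at pH 8.3, against 3304 and 2241 CPM at pH 5.9. The groups did not overlap, and FER1 was lower by a log2 fold change of -6.88 ± 1.01 (SE, n = 2 libraries per group; limma adjusted p = 0.0046). FER3, also a plastid ferritin, had 17.3 and 12.5 CPM at pH 8.3, against 269 and 171 CPM at pH 5.9, and fell by 3.87 ± 0.42 on the log2 scale (limma adjusted p = 0.00172). FER4 had 5.14 and 2.28 CPM at pH 8.3, against 82.6 and 70.4 CPM at pH 5.9 (log2 fold change -4.48 ± 1.02, limma adjusted p = 0.021). FER3 was past the thresholds whichever of the 4 libraries was left out. FER1 was past them only when replicate 1 of either group was left out, and FER4 in none of these fits. The log2 fold changes in these fits were -4.19 to -3.54 for FER3, -7.23 to -6.53 for FER1 and -5.06 to -3.89 for FER4.

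Of the 5 measured genes of the iron storage list, 3 fell and the other 2 lay below without passing the test, and their median was -3.87 on the log2 scale. NEET, an iron-sulfur protein of plastids and mitochondria, had 26.9 and 7.68 CPM at pH 8.3, against 139 and 206 CPM at pH 5.9 (limma adjusted p = 0.0958). FER2, the ferritin known from seeds, was read at 0.218 and 0.125 CPM at pH 8.3, against 0.594 and 0.784 CPM at pH 5.9 (limma adjusted p = 0.119). AT1G76800, annotated as a member of the vacuolar iron transporter family and chosen after its values were seen, had 0.37 and 0.375 CPM at pH 8.3, against 2.97 and 3.24 CPM at pH 5.9, and fell (log2 fold change -3.06, limma adjusted p = 0.0215). APX1, the cytosolic ascorbate peroxidase that removes hydrogen peroxide with a haem iron, fell to 376 and 238 CPM at pH 8.3, against 2153 and 1467 CPM at pH 5.9 (log2 fold change -2.57 ± 0.43, limma adjusted p = 0.00698). It was the only 1 of 10 measured genes of antioxidant enzymes past the thresholds, and the median of that list was -0.13 (0.15 with TMM factors).

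Genes of the iron deficiency response lay mostly on the other side. Of 21 measured members, 13 had both pH 8.3 libraries above both pH 5.9 libraries (61.9%, against 13.2% of all genes). Another 6 had both below (28.6%, against 53.1%). Past the thresholds 1 rose and 1 fell, and the median log2 fold change was 0.98. A further 6 entries of this list were left out of these counts because the reference does not carry the names they were listed under. All 6 were measured and 3 of them rose (AT1G47395, AT1G47400 and AT2G30766). With them 4 of 27 rose and 1 fell, 17 lay above and 7 below without overlap, and the median was 1.08. OPT3, which loads iron into the phloem and is needed for iron signalling from shoot to root, had 249.7 and 245.9 CPM at pH 8.3, against 50.8 and 42.8 CPM at pH 5.9. It rose by 2.41 ± 0.68 on the log2 scale (limma adjusted p = 0.0449). NRAMP3, which releases iron from the vacuole, had 8.25 and 4.76 CPM at pH 8.3, against 30.3 and 14.1 CPM at pH 5.9, and fell (log2 fold change -1.72, limma adjusted p = 0.0256).

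Several regulators of the response had large differences that did not pass the test. The transcription factor bHLH38, which with its partner FIT activates iron uptake genes, had 18.8 and 40.8 CPM at pH 8.3, against 0.295 and 0.193 CPM at pH 5.9 (log2 fold change 6.86 ± 2.03, limma adjusted p = 0.0517). Its neighbour bHLH39, of the same subgroup, had 7.53 and 16.3 CPM at pH 8.3, against 0.242 and 0.094 CPM at pH 5.9 (limma adjusted p = 0.0646). Both were chosen after their values were seen, and reads of these closely similar neighbours may be split between them. BTS, a ubiquitin ligase that holds the response back, had 224 and 262 CPM at pH 8.3, against 41.8 and 61.7 CPM at pH 5.9 (limma adjusted p = 0.144). The transcription factor PYE (18.0 and 19.3 CPM at pH 8.3, against 5.19 and 6 CPM at pH 5.9) and the ferric reductase FRO3 (57.4 and 61.3 CPM at pH 8.3, against 13 and 15.6 CPM at pH 5.9) each had an adjusted p of 0.163. CGLD27 of the plastid had 261 and 293 CPM at pH 8.3, against 155 and 126 CPM at pH 5.9 (limma adjusted p = 0.237). In each of these genes the groups did not overlap.

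The G-box, CACGTG, is a short palindrome that bHLH proteins are known to bind. It was searched in the 250 bases before the gene start, on both strands, which read alike. It was present for 6 of 26 measured genes of the 2 iron lists (23.1%), for 5 of 42 higher genes (11.9%), for 22 of 350 lower genes with a reference promoter (6.29%) and for 1396 of 18535 genes (7.53%). The iron genes with a G-box included OPT3, bHLH38, BHLH100, BTS and FER3, which stand on both sides of the response. The 250 bases before the start of 1 gene that lay below and 2 that lay above at pH 8.3 are shown for this reason, 5′ to 3′ on the gene's strand from the RefSeq assembly TAIR10.1, with the G-box in capitals. All 3 genes are on the minus strand, and the stretches are chr3:20816036-20816285 (FER3), chr4:9250344-9250593 (OPT3) and chr3:21085246-21085495 (bHLH38). The boxes begin 76, 78 and 97 bases before the gene start in FER3, OPT3 and bHLH38.
FER3: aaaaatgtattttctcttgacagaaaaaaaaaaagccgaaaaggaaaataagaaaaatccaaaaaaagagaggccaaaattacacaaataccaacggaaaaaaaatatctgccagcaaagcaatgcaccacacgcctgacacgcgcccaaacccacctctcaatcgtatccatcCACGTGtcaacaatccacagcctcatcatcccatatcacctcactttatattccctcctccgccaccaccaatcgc
OPT3: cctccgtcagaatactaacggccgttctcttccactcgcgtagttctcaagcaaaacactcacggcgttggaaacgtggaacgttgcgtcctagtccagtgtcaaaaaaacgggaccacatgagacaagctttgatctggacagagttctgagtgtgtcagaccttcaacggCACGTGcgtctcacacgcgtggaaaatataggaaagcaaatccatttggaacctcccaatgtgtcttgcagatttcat
bHLH38: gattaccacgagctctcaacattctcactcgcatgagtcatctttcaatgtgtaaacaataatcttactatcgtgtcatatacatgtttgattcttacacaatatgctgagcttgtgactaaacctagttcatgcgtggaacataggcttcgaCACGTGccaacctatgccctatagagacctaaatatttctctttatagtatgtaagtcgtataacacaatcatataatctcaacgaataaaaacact

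The match is a description of letters and does not show that a factor was bound. Of the other motifs searched, the E2F site TTTCCCGC was in 2 of 42 higher genes (4.76%), 6 of 350 lower genes (1.71%) and 0.642% of all genes, and the site II element TGGGCC was in 1 higher gene (2.38%), 65 lower genes (18.6%) and 17.0% of all genes.

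**Figure D2:**
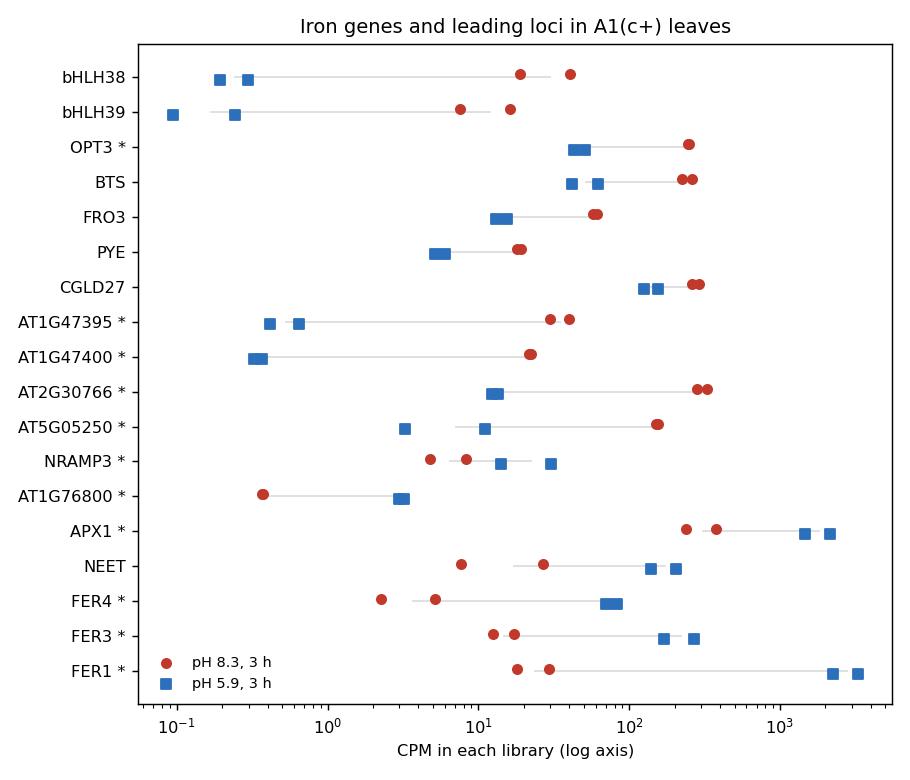
Levels of iron genes (CPM, log scale) in A1(c+) leaves at 3 h, 1 row per gene, with each red circle a pH 8.3 library, each blue square a pH 5.9 library, grey lines between the group means and an asterisk for genes past the thresholds. Ferritins lie below at pH 8.3 (FER1 29.5 and 18.1 CPM, against 3304 and 2241 CPM), and OPT3 and bHLH38 lie above.

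The pH 5.9 libraries at 3 h stood apart from the other A1(c+) libraries in these genes. FER1 ranged from 28.6 to 442 CPM over the other 8 A1(c+) libraries of the series, so that the 2 libraries at pH 5.9 and 3 h (3304 and 2241 CPM) lay above all of them and the pH 8.3 libraries (29.5 and 18.1 CPM) lay near or below their lower end. OPT3 ranged from 90.4 to 1120 CPM over the same 8 libraries, above both pH 5.9 libraries at 3 h. The part of this standing apart in the differences at 3 h was not tested.

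The largest increases past the thresholds after 3 h included 5 loci annotated as uncharacterized proteins. AT2G30766, AT1G47395 and AT1G47400 are the 3 entries of the iron deficiency list that rose but were left out of its counts by name. AT2G30766 had 283 and 330 CPM at pH 8.3, against 12.3 and 13.5 CPM at pH 5.9 (log2 fold change 4.56 ± 1.09, limma adjusted p = 0.0252). AT1G47395 had 30.1 and 40.0 CPM at pH 8.3, against 0.418 and 0.649 CPM at pH 5.9, and its neighbour AT1G47400 had 22.2 and 21.7 CPM at pH 8.3, against 0.365 and 0.327 CPM at pH 5.9. AT5G05250 had 152 and 156 CPM at pH 8.3, against 3.25 and 11.01 CPM at pH 5.9, and AT3G56360 had 397 and 360 CPM at pH 8.3, against 16.1 and 82.3 CPM at pH 5.9. The adjusted p of the 5 loci from limma lay between 0.016 and 0.0413. DGAT3, a diacylglycerol acyltransferase of storage lipid synthesis, followed with 272 and 282 CPM at pH 8.3, against 16.9 and 113 CPM at pH 5.9 (log2 fold change 2.67 ± 0.61, limma adjusted p = 0.0211). Over 6 other A1(c+) libraries AT2G30766 ranged from 212 to 1390 CPM and AT3G56360 from 318 to 640 CPM. Over the same libraries AT1G47400 ranged from 11.6 to 293 CPM and DGAT3 from 249 to 713 CPM. The pH 5.9 libraries at 3 h lay below these ranges and the pH 8.3 libraries at 3 h within them. These 6 leave out the library labelled bic 3 h replicate 2 and pH 8.3 48 h replicate 1, both with genes of T6(c-). The pH 5.9 libraries at 3 h themselves had 3 and 2 of the T6(c-) genes above 1 CPM. The part of this standing apart of the pH 5.9 libraries in the increases was not tested.

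Further genes among the largest increases had a range of functions. ORA47, an AP2/ERF transcription factor of the jasmonate response, had 22.8 and 26.6 CPM at pH 8.3, against 4.19 and 6.38 CPM at pH 5.9 (log2 fold change 2.25 ± 0.61, limma adjusted p = 0.0389). CAF1a, a deadenylase that shortens the tails of mRNAs, had 37.4 and 51.9 CPM at pH 8.3, against 6.5 and 10.8 CPM at pH 5.9 (log2 fold change 2.39, limma adjusted p = 0.0287). GolS2, a galactinol synthase that makes osmoprotective sugars, had 199 and 208 CPM at pH 8.3, against 47.5 and 68.7 CPM at pH 5.9 (log2 fold change 1.83 ± 0.34, limma adjusted p = 0.0104). The nuclease AT4G29780 had 14.8 and 78.8 CPM at pH 8.3, against 5.65 and 7.11 CPM at pH 5.9, so that its replicates at pH 8.3 differed widely. JAL34, a lectin, had 144 and 98.8 CPM at pH 8.3, against 39.5 and 35.5 CPM at pH 5.9 (limma adjusted p = 0.0354). The uncharacterized locus AT4G27652 had 12.7 and 15.4 CPM at pH 8.3, against 4.27 and 3.94 CPM at pH 5.9 (limma adjusted p = 0.00385). NHL3, a membrane protein of defence that was chosen after its values were seen, had 121 and 148 CPM at pH 8.3, against 51.3 and 42.1 CPM at pH 5.9 (limma adjusted p = 0.00838).

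Single calcium sensors passed the thresholds. Among 47 calmodulin-like and calcium-binding proteins, 3 rose (6.38%, against 0.226% of all genes) and 1 fell (2.13%, against 1.9%), and the median of the family was 0.05 (0.33 with TMM factors, and below 0 when 1 library was left out). CML23 had 3.48 and 3.63 CPM at pH 8.3, against 1.1 and 0.927 CPM at pH 5.9 (log2 fold change 1.82 ± 0.41, limma adjusted p = 0.0207). The EF-hand proteins AT3G25600 (12.97 and 12.6 CPM at pH 8.3, against 5.13 and 5.18 CPM at pH 5.9) and AT4G27280 (39.7 and 34.2 CPM at pH 8.3, against 14.4 and 22.5 CPM at pH 5.9) rose as well. AT2G27480, of the same kind, fell to 3.76 and 3.26 CPM at pH 8.3, against 6.68 and 7.77 CPM at pH 5.9. TCH2, a touch-induced calmodulin-like protein, was the single gene of 18 in the list of cold and rapid stress past the thresholds, with 17.2 and 31.7 CPM at pH 8.3, against 11.5 and 9.81 CPM at pH 5.9 (limma adjusted p = 0.0393). In that list 11 of 18 genes had both pH 8.3 libraries above both pH 5.9 libraries (61.1%, against 13.2% of all genes). None had both below, and the median was 0.84.

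Single genes of leaf products rose with them. KCS6, which elongates the fatty acids of cuticular wax, had 402 and 446 CPM at pH 8.3, against 214 and 207 CPM at pH 5.9 (log2 fold change 1.01 ± 0.24, limma adjusted p = 0.0255). It was 1 of 14 wax and cutin genes past the thresholds, and the median was 0.60. Of the 14, 10 did not overlap and lay above (71.4%, against 13.2% of all genes). MAM1, which elongates methionine for aliphatic glucosinolates, had 433 and 448 CPM at pH 8.3, against 237 and 179 CPM at pH 5.9 (log2 fold change 1.09 ± 0.32, limma adjusted p = 0.0496), and was 1 of 22 genes of that pathway past the thresholds (median 0.24, which was 0.52 with TMM factors and 0.01 to 0.38 with a library left out). AT1G54040, the epithiospecifier protein that steers glucosinolate breakdown towards nitriles and was chosen after its values were seen, had 9179 and 10524 CPM at pH 8.3, against 3823 and 4367 CPM at pH 5.9 (limma adjusted p = 0.0301). MYB34, an activator of indolic glucosinolate genes, fell to 13.05 and 14.7 CPM at pH 8.3, against 31.3 and 29.6 CPM at pH 5.9 (log2 fold change -1.14 ± 0.19, limma adjusted p = 0.00766). It was the only 1 of 9 measured indolic genes past the thresholds, and the median of that list was -0.20 (0.08 with TMM factors and 0.02 with quantile normalization).

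Antenna proteins of the photosystems lay slightly above. LHCB2.1, of the light-harvesting complex of photosystem II, had 469 and 510.0 CPM at pH 8.3, against 271 and 188 CPM at pH 5.9 (log2 fold change 1.11 ± 0.21, limma adjusted p = 0.0107), and its reads may be shared with the near-identical LHCB2.2. Of 18 antenna genes 15 did not overlap and lay above (83.3%, against 13.2% of all genes) and 1 passed the thresholds. The median was 0.26, which became -0.02 with quantile normalization.

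Genes of anthocyanin formation were low at pH 8.3. Anthocyanins are the red flavonoid pigments of leaves, and the last steps of their synthesis are switched on together by MYB and bHLH factors. DFR, the first enzyme of these late steps, had 0.137 and 0.255 CPM at pH 8.3, against 12.5 and 13.5 CPM at pH 5.9 (log2 fold change -6.12 ± 1.48, limma adjusted p = 0.026). TT8, the bHLH factor that activates it, was counted by 2 and 0 reads at pH 8.3, against 116 and 139 reads at pH 5.9, a ratio of pH 5.9 over pH 8.3 of 112 (95% counting interval 30.8 to 933; limma adjusted p = 0.0227). UF3GT, a flavonoid glycosyltransferase, had 0.157 and 0.205 CPM at pH 8.3, against 3.99 and 6.12 CPM at pH 5.9 (limma adjusted p = 0.0336). GSTF12, which carries anthocyanins to the vacuole, had 1.23 and 1.16 CPM at pH 8.3, against 13.2 and 19.9 CPM at pH 5.9 (log2 fold change -3.77 ± 0.82, limma adjusted p = 0.0191). AT5MAT, an anthocyanin malonyltransferase, had 0.0354 and 0.0951 CPM at pH 8.3, against 5.49 and 6.29 CPM at pH 5.9 (limma adjusted p = 0.0223).

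In all, 4 of 16 measured genes of the flavonoid list fell (25.0%, against 1.9% of all genes) and none rose. Of the 16, 12 did not overlap and lay below (75.0%, against 53.1%), and the median was -0.92. LDOX, the enzyme after DFR, did not pass the test (0.511 and 0.746 CPM at pH 8.3, against 12.5 and 13.8 CPM at pH 5.9; limma adjusted p = 0.0535), and AT4G14090, annotated as a glycosyltransferase, fell (3.25 and 3.56 CPM at pH 8.3, against 13.9 and 20.14 CPM at pH 5.9; limma adjusted p = 0.0408). Both were chosen after their values were seen. The enzymes of the early, shared steps had smaller differences, with TT4 at 56.8 and 88.0 CPM at pH 8.3, against 116 and 113 CPM at pH 5.9 (limma adjusted p = 0.392). The regulator AT1G56650 overlapped between the groups, with 28 and 17.5 CPM at pH 8.3, against 22.2 and 42.1 CPM at pH 5.9. DFR ranged from 0.396 to 23.56 CPM over the other 8 A1(c+) libraries, so that both pH 8.3 libraries at 3 h lay below all of them.

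Genes of cell division were low at pH 8.3 as well. Of 32 genes of mitosis and cytokinesis 28 did not overlap and lay below, 3 fell past the thresholds, none rose, and the median was -1.89 (-0.95 with quantile normalization). These counts are 87.5% below and 9.38% past the thresholds, against 53.1% and 1.9% of all genes. No member of this list had a mean of at least 10 CPM. In the lowest of the 5 parts of all genes by mean level the median was -0.62. CDC20.1, which activates the anaphase-promoting complex, had 0.592 and 0.646 CPM at pH 8.3, against 8.72 and 8.42 CPM at pH 5.9 (log2 fold change -3.79 ± 1.04, limma adjusted p = 0.0413). CDC20.2, its close copy next to it on chromosome 4, had 1.26 and 1.05 CPM at pH 8.3, against 12.99 and 10.8 CPM at pH 5.9 (log2 fold change -3.37 ± 0.78, limma adjusted p = 0.0222), and the split of reads between both copies is uncertain. CYCB2;1, a mitotic cyclin, had 0.0557 and 0.0651 CPM at pH 8.3, against 0.937 and 1.12 CPM at pH 5.9 (limma adjusted p = 0.0318). The kinesins AT4G38950 (14.2 and 18.8 CPM at pH 8.3, against 52.6 and 54.4 CPM at pH 5.9) and AT5G55520 (0.349 and 0.295 CPM at pH 8.3, against 3.11 and 2.77 CPM at pH 5.9) fell. They were 2 of 41 motor proteins of that family (4.88%, against 1.9% of all genes). The family median was -0.48 (-0.20 with TMM factors and -0.23 with quantile normalization). Over members with a mean of at least 10 CPM it was -0.15, against -0.17 for all such genes. In the list of G1/S and DNA replication 17 of 19 genes did not overlap and lay below (89.5%, against 53.1% of all genes). The median was -0.95 (-0.53 with quantile normalization and -0.50 over members with a mean of at least 10 CPM). Of the 19, 1 fell (5.26%, against 1.9%). That gene, MCM6, a subunit of the replicative helicase, had 2.57 and 3.28 CPM at pH 8.3, against 6.35 and 5.98 CPM at pH 5.9 (limma adjusted p = 0.0454). In bulk leaf samples, fewer cells of a type and less RNA per cell cannot be told apart.

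Lists of leaf development also had medians below that of all genes. Past the thresholds, 5.0% of the leaf growth regulators, 6.25% of the stomatal list and 12.5% of the type-A regulators fell. This was 1 gene in each, against 1.9% of all genes. AS1, which keeps meristem genes off in young leaves, fell to 23.1 and 25.3 CPM at pH 8.3, against 78.6 and 55.8 CPM at pH 5.9 (log2 fold change -1.45 ± 0.35, limma adjusted p = 0.025), and was 1 of 20 leaf growth regulators past the thresholds (median -1.10). AT4G31805, listed as POLAR, a polarity factor of stomatal precursor cells (annotated in RefSeq as a WRKY factor), had 0.106 and 0.215 CPM at pH 8.3, against 2.11 and 1.63 CPM at pH 5.9 (limma adjusted p = 0.0482), and was 1 of 16 in that list (median -0.96, and -0.13 over its members with a mean of at least 10 CPM). SPCH, which starts the stomatal lineage, had 0.208 and 0.205 CPM at pH 8.3, against 2.66 and 2.31 CPM at pH 5.9 (limma adjusted p = 0.124), and FMA, which ends it, overlapped with 12.9 and 14.8 CPM at pH 8.3, against 14.3 and 15.8 CPM at pH 5.9. RR3, a type-A response regulator of cytokinin signalling, had 24.8 and 26.1 CPM at pH 8.3, against 56.5 and 50.3 CPM at pH 5.9 (log2 fold change -1.07 ± 0.24, limma adjusted p = 0.0215), 1 of 8 type-A regulators past the thresholds (median -0.70).

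Some markers of the youngest tissue lay below as well. STM, which maintains the shoot meristem, was at 0.0253 and 0.00501 CPM at pH 8.3, against 1.98 and 0.864 CPM at pH 5.9, and KNAT1 was at 0.167 and 0.0651 CPM at pH 8.3, against 2.53 and 0.963 CPM at pH 5.9. PDF1, a marker of young epidermis, had 1.35 and 1.81 CPM at pH 8.3, against 34.2 and 30.3 CPM at pH 5.9. None of the 3 passed the test (limma adjusted p = 0.111, 0.293 and 0.0903), and they were chosen after their values were seen. Summed over the 4 measured shoot meristem markers, the level was 42.3 and 45.7 CPM at pH 8.3, against 47.6 and 53.4 CPM at pH 5.9, with CLV1 holding most of it (42 and 45.5 CPM at pH 8.3, against 42.5 and 51.3 CPM at pH 5.9). Of 5 epidermis markers 4 lay above without overlap (80.0%, against 13.2% of all genes) and none passed the thresholds.

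The summed level of the mitosis list was 64.4 and 43.0 CPM at pH 8.3, against 141.7 and 116.2 CPM at pH 5.9. Over the other A1(c+) libraries it was 157 CPM in the library labelled bic 3 h replicate 2 and 288 CPM in pH 8.3 48 h replicate 1, both with genes of T6(c-), and 24.8 to 84.2 CPM in the other 6, which include both pH 5.9 libraries at 48 h (26.5 and 25.8 CPM). The pH 8.3 libraries at 3 h thus lay within the range of these 6, and the pH 5.9 libraries at 3 h lay above it. The pH 5.9 libraries at 3 h had 3 and 2 of the T6(c-) genes above 1 CPM. The part of young tissue in the lower cell division, leaf growth and anthocyanin genes was not tested.

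**Figure D3:**
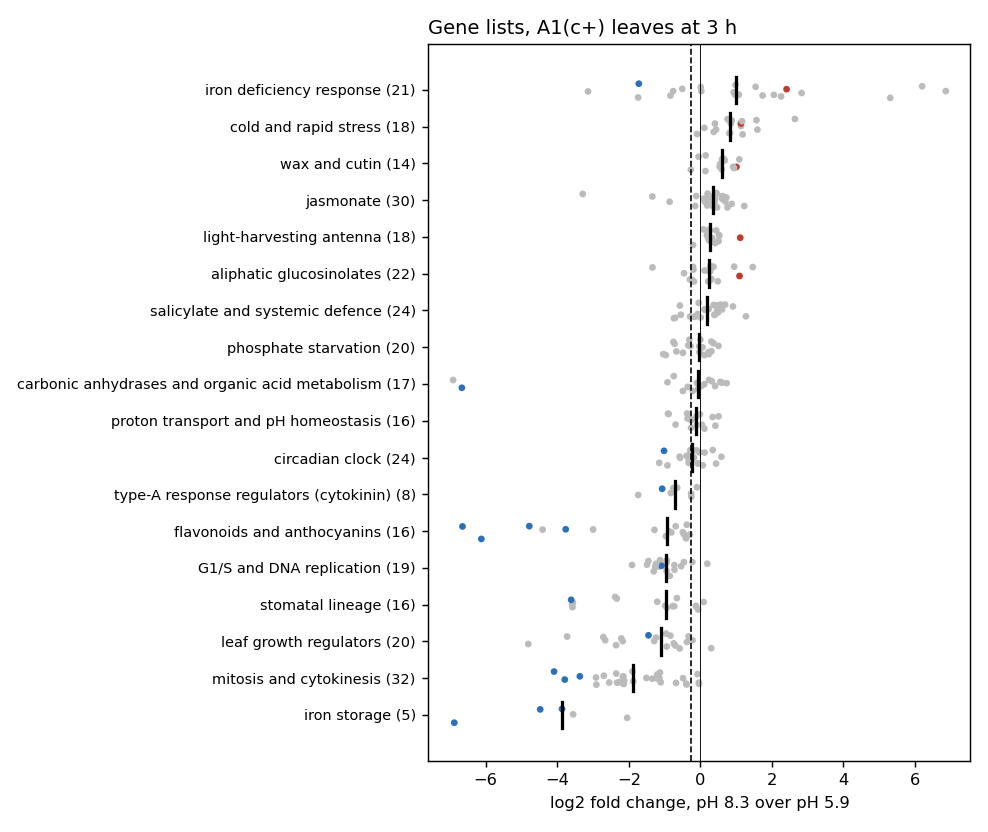
Log2 fold changes of pH 8.3 over pH 5.9 in A1(c+) leaves at 3 h for the genes of the described lists, 1 row per list; each dot is a gene, red or blue where it rose or fell past the thresholds and grey otherwise, the bar is the list median and the dashed line the median of all genes (-0.27). The number of measured genes is in parentheses. Iron storage has the lowest median (-3.87) and iron deficiency the highest (0.98).

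Genes of cytosolic ribosomal proteins lay mostly below by small amounts. Of 283 genes of cytosolic ribosomal proteins 215 did not overlap and lay below (76.0%, against 53.1% of all genes). Past the thresholds 19 fell (6.71%, against 1.9% of all genes) and none rose. The median was -0.61 (-0.33 with TMM factors and -0.41 with quantile normalization). AT5G22440 of the L1 family had 23.0 and 18.6 CPM at pH 8.3, against 51.7 and 42.6 CPM at pH 5.9 (log2 fold change -1.18 ± 0.19, limma adjusted p = 0.00682). RPS28, of the small subunit, had 41.1 and 32.9 CPM at pH 8.3, against 88.6 and 74.3 CPM at pH 5.9 (log2 fold change -1.14 ± 0.22, limma adjusted p = 0.0109). AT2G21580 of the S25 family had 67.3 and 58.1 CPM at pH 8.3, against 141 and 127 CPM at pH 5.9, and AT1G41880 of the L35Ae family had 31.0 and 24.2 CPM at pH 8.3, against 68.2 and 58.96 CPM at pH 5.9. With TMM factors the log2 fold changes of these 4 genes were -0.82 to -0.93. None of the 4 then passed the thresholds. Ribosomal proteins are encoded by families of close copies, between which reads may be split.

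The lowest fold changes came from genes of several functions that were near 0 at pH 8.3. AAE2, of the AMP-dependent ligase family, was counted by 5 and 0 reads at pH 8.3, against 1036 and 1655 reads at pH 5.9, a ratio of 474 (95% counting interval 203 to 1460; limma adjusted p = 0.00708). The hydrolase AT3G05600 had a ratio of 120 (58 to 299), from 5 and 2 reads at pH 8.3, against 551 and 402 reads at pH 5.9. AT2G19920, annotated as an RNA-dependent RNA polymerase, had a ratio of 35.9 (16.2 to 98.7), from 5 and 1 reads at pH 8.3, against 168 and 76 reads at pH 5.9. PME5, of the pectin lyase-like family, had 0.501 and 0.936 CPM at pH 8.3, against 29.0 and 35.3 CPM at pH 5.9, and the E6-like gene AT2G33850 had 0.157 and 0.145 CPM at pH 8.3, against 11.9 and 12.3 CPM at pH 5.9. The uncharacterized locus AT3G63255 had 0.127 and 0.155 CPM at pH 8.3, against 5 and 7.47 CPM at pH 5.9. Over the 6 other A1(c+) libraries without bic 3 h replicate 2 and pH 8.3 48 h replicate 1, AAE2 ranged from 0.218 to 0.8 CPM. There AT3G05600 ranged from 0.0333 to 0.139 CPM and PME5 from 0.395 to 3.3 CPM. The 2 libraries left out were higher (AAE2 at 5.69 and 5.0 CPM). The pH 5.9 libraries at 3 h lay above the ranges of the 6, which include both pH 5.9 libraries at 48 h. They had 3 and 2 of the T6(c-) genes above 1 CPM at 3 h. In T6(c-) at 3 h, AT3G05600 had 7.16 and 8.23 CPM at pH 8.3, against 9.14 and 9.53 CPM at pH 5.9. PME5 had 35.2 and 39.5 CPM at pH 8.3, against 83.1 and 80.5 CPM at pH 5.9, there. AAE2 was lower there, with 0.106 and 0.469 CPM at pH 8.3, against 1.94 and 1.99 CPM at pH 5.9. The part of this standing apart of the pH 5.9 libraries in the differences was not tested. Counting intervals cover counting error only, since reads without molecular identifiers are not independent molecules.

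Single genes of primary metabolism and of the clock also fell. NADP-ME3, a malic enzyme, was counted by 0 and 1 reads at pH 8.3, against 103 and 96 reads at pH 5.9, a ratio of 175 (31.1 to 6960; limma adjusted p = 0.0251), and was 1 of 17 genes of carbonic anhydrases and organic acid metabolism past the thresholds (median -0.06, and 0.22 with TMM factors). It ranged from 0.0143 to 0.0367 CPM over the same 6 other A1(c+) libraries, below its pH 5.9 libraries at 3 h (0.911 and 0.864 CPM). RVE8, an activator of evening clock genes, had 20.7 and 17.3 CPM at pH 8.3, against 39.6 and 36.9 CPM at pH 5.9 (log2 fold change -1.02 ± 0.25, limma adjusted p = 0.0271), and was 1 of 24 clock genes past the thresholds (median -0.23, and 0.05 with TMM factors). BT2, listed with genes of low carbon supply, had 0.521 and 0.295 CPM at pH 8.3, against 1.06 and 6.27 CPM at pH 5.9 (limma adjusted p = 0.0361). The pH 5.9 replicates differed in this list: AT4G35770, a dark-induced gene chosen after its values were seen, had 15.5 and 12.1 CPM at pH 8.3, against 4.06 and 370 CPM at pH 5.9, and without pH 5.9 replicate 2 its log2 fold change turned to 1.75 (-1.50 with all libraries).

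Other lists had no gene past the thresholds. The vacuolar proton pumps VHA-A (581 and 570 CPM at pH 8.3, against 436 and 376 CPM at pH 5.9; limma adjusted p = 0.0504) and AVP1 (542 and 572 CPM at pH 8.3, against 491 and 392.1 CPM at pH 5.9; limma adjusted p = 0.203) lay above without passing the test, and 0 of 16 genes of proton transport passed it. The same count was 0 of 20 for phosphate starvation, with PHO2 overlapping (168 and 164 CPM at pH 8.3, against 143 and 199 CPM at pH 5.9). It was 0 of 18 for sulfur deficiency and assimilation, with APS1 at 823 and 750.0 CPM at pH 8.3, against 622 and 638 CPM at pH 5.9. For jasmonate it was 0 of 30, although 15 genes lay above and 2 below without overlap. Of all genes, 13.2% lay above and 53.1% below in this way. The jasmonate median was 0.36 (0.64 with TMM factors and 0.44 with quantile normalization). LOX2 of jasmonate synthesis had 6268 and 5198 CPM at pH 8.3, against 3034 and 3191 CPM at pH 5.9 (limma adjusted p = 0.216). For salicylate and systemic defence the count past the thresholds was 0 of 24. The median of that list was 0.19 (0.47 with TMM factors and 0.02 to 0.42 with a library left out). The pathogenesis-related genes PR5 (187 and 93.2 CPM at pH 8.3, against 288 and 129 CPM at pH 5.9) and BGL2 (251 and 140 CPM at pH 8.3, against 368 and 211 CPM at pH 5.9) overlapped between the groups.

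Of the 60 described genes past the thresholds, 14 stayed past them without pH 8.3 replicate 1, 2 without pH 8.3 replicate 2, 13 without pH 5.9 replicate 1 and 5 without pH 5.9 replicate 2. FER3 and BRG2 stayed in each of the 4. The number of genes past the thresholds was 108, 9, 253 and 13 in these fits, in which the spread of the lone library is taken from the other groups.

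To see whether the same exposure moved genes of the sensitive deme alike, the values of T6(c-) at 3 h were set beside those of A1(c+). No gene passed the thresholds for pH 8.3 against pH 5.9 in T6(c-) leaves (limma, 1808 genes at an unadjusted p under 0.05), and none for the difference between the responses of the demes (0% of 18603 genes; 1357 at an unadjusted p under 0.05; smallest adjusted p 0.361). That count was 481 when only the 4 groups compared were fitted. It was 553 with weights per library, which came out alike for both libraries of each group. The absence of calls thus depended on how the spread was pooled over groups. In T6(c-) the 42 higher genes of A1(c+) had a median of 0.72 on the log2 scale, positive in 37 of 42, and the 354 lower genes had -0.47, negative in 315 of 354, against a median of -0.01 over all genes.

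Of the iron genes past the thresholds in A1(c+), FER1 and OPT3 had the same direction in T6(c-) and NRAMP3 did not. FER1 had 47.8 and 50.1 CPM at pH 8.3, against 966 and 958 CPM at pH 5.9, in T6(c-), and OPT3 had 508 and 570 CPM at pH 8.3, against 138 and 135 CPM at pH 5.9. NRAMP3 had 11.7 and 11.8 CPM at pH 8.3, against 10.6 and 10.3 CPM at pH 5.9, in T6(c-). The anthocyanin gene DFR had 32.9 and 31.4 CPM at pH 8.3, against 20.12 and 19.7 CPM at pH 5.9, in T6(c-), on the opposite side to A1(c+), and the flavonoid list had a median of 0.54 there. The difference between the demes for DFR was -6.81 on the log2 scale (limma adjusted p = 0.635). Among the other genes that rose in A1(c+), CAF1a had 9.64 and 7.23 CPM at pH 8.3, against 7.26 and 7.57 CPM at pH 5.9, in T6(c-), and ORA47 had 3.19 and 2.65 CPM at pH 8.3, against 2.58 and 2.87 CPM at pH 5.9.

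The smallest p of the deme difference belonged to 3 genes. NUDT21, a nudix hydrolase, had 22.6 and 27.7 CPM at pH 8.3, against 8.06 and 10.2 CPM at pH 5.9, in A1(c+), and 4.86 and 5.55 CPM at pH 8.3, against 5.9 and 6.42 CPM at pH 5.9, in T6(c-) (difference 1.71, limma adjusted p = 0.361). ACYB-2, a cytochrome b561 of the ferric reductase type, had 235 and 236 CPM at pH 8.3, against 143 and 153 CPM at pH 5.9, in A1(c+), and 144 and 144 CPM at pH 8.3, against 171 and 171 CPM at pH 5.9, in T6(c-) (difference 0.92, limma adjusted p = 0.361). BRG2, annotated as a zinc-binding protein and a gene with 1 of the smallest p in A1(c+), had 17.9 and 14.3 CPM at pH 8.3, against 62.7 and 56.3 CPM at pH 5.9, in A1(c+), and 28.6 and 26.2 CPM at pH 8.3, against 34.7 and 36.4 CPM at pH 5.9, in T6(c-) (difference -1.51, limma adjusted p = 0.393).

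**Figure D4:**
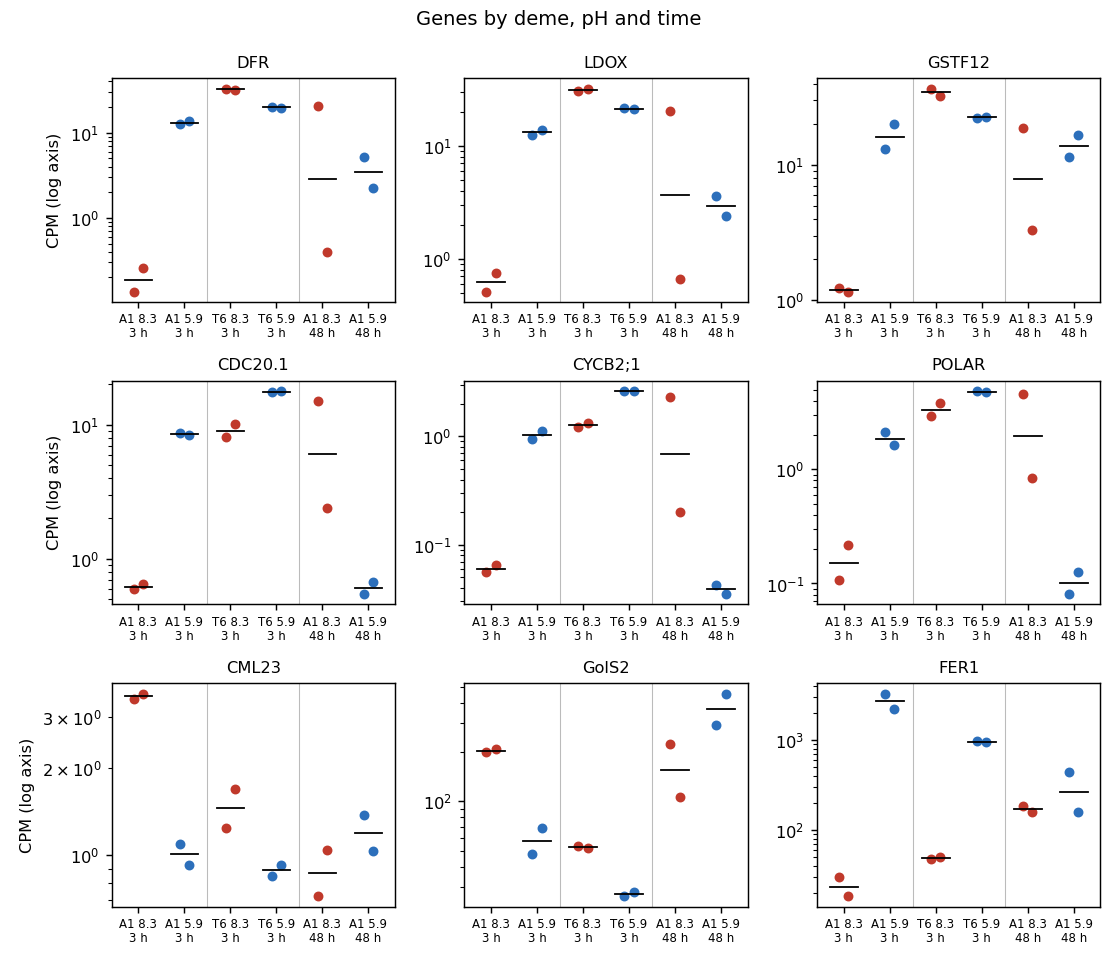
Levels (CPM, log scale) of described genes at pH 8.3 and pH 5.9 in A1(c+) at 3 h, T6(c-) at 3 h and A1(c+) at 48 h, with each point 1 library (red for pH 8.3, blue for pH 5.9) and the bar the geometric mean of the group. FER1 in the pH 5.9 libraries of A1(c+) at 3 h (3304 and 2241 CPM) lies above those of T6(c-) at 3 h (966 and 958 CPM) and of A1(c+) at 48 h (442 and 158 CPM).

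To see whether the early response was kept, the A1(c+) libraries at 48 h were compared in the same way. The response at 48 h minus that at 3 h was past the thresholds for 1895 genes, 1698 positive (9.13%) and 197 negative (1.06%). As this difference holds the 3 h values with the opposite sign, the 303 of 354 lower genes among the positive and the 29 of 42 higher genes among the negative are no independent result. In the 48 h libraries alone, the 354 lower genes had a median of 0.51 on the log2 scale, positive in 312, and the 42 higher genes had -0.43, positive in 11, against 0.05 over all genes. FER1 had 183 and 160 CPM at pH 8.3, against 442 and 158 CPM at pH 5.9, at 48 h. GolS2 had 223 and 107 CPM at pH 8.3, against 293 and 455 CPM at pH 5.9, at 48 h. CDC20.1 had 15.1 and 2.4 CPM at pH 8.3, against 0.547 and 0.677 CPM at pH 5.9, at 48 h, and KCS6 had 316 and 391.7 CPM at pH 8.3, against 714 and 899 CPM at pH 5.9. The 2 pH 8.3 libraries at 48 h differed from each other, and the count of the time difference was 1035 without the first of them and 3866 without the second. When the A1(c+) groups were fitted alone it was 0 (limma, smallest adjusted p 0.114).

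The bic treatment of A1(c+) at 3 h shares its pH 5.9 libraries with the high pH treatment, so that values are given side by side. The 354 lower genes had a median of -0.66 under bic and the 42 higher genes 0.50, against -0.19 over all genes. FER1 had 53.3 CPM in bic replicate 1 and 163 CPM in the library labelled bic replicate 2, and AT2G30766 had 212 and 15.9 CPM in these libraries.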

How the data were processed

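Leaf RNA of 12 groups (2 demes, 3 treatments, 2 times) was sequenced as 72 samples, and the table deposited by the authors has 1 column for each of 2 biological replicates per group. The values are log2 CPM (the log2 of read counts scaled to a common library total), which the authors made by adding 0.5 reads to each count and relating it to the library total. This form was read from the values, whose low levels are whole reads within a tolerance of 0.05 for 100% of them. All 18603 genes of the table exceed 1 CPM in 6 columns or more. The study's methods name TopHat, Bowtie and DESeq 1.18.0, while the submitters' processing notes name FastQC, Trim Galore, Salmon, DESeq2 and the build TAIR10, so that the counting tool behind the values is uncertain. The libraries were unstranded, so that a gene and an antisense partner cannot be told apart. Library totals of the 4 columns compared were 98.8 to 113.6 M reads. Each group has 2 replicates, and the spread used in each comparison was pooled over all 12 groups. Replicate numbers were taken from the last digit of the column names, as the sample titles use it. The methods also speak of 3 biological replicates. No column belonged to another series.

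Differences were tested with limma 3.58.1 in R 4.3.3 on the deposited log2 values, with 12 group means (12 residual and 2.54 prior degrees of freedom), a prior variance that follows the mean level, and two-sided p-values adjusted over all genes by Benjamini-Hochberg. Thresholds were 0.05 for the adjusted p and 1 in either direction for the log2 fold change. The p-values measure the spread between pools of plants. On simulated data with 50 changed genes at each log2 fold change of 1, 2, 3 and 5, this test recovered 28%, 72%, 98% and 94%, with 5 false calls among 18603 genes. The simulation gave each gene the same spread in all groups and no overall shift. In the measured data the mean variance within groups went from 0.0094 (T6(c-) pH 5.9 3 h) to 0.7398 (A1(c+) pH 8.3 48 h). These rates therefore need not hold for the measured data. Described genes are the 14 highest and 14 lowest past the thresholds without overlap and with a mean of at least 1 CPM in 1 group, up to 4 members of each described list past the thresholds by smallest p (up to 2 others by mean level where none passed, and in the iron lists), and the genes of the deme and time differences that are among them or, where none is, the 3 with the smallest p. Other genes are named as chosen after their values were seen, and TT4, AT1G56650, SPCH and FMA were also named outside these rules. The 38 lists and 40 families were written from general knowledge and product names, and the members and lists were chosen with earlier results of these data known. Of the list entries 20 were left out because the reference does not carry their listed names, and 18 of these were in the table. In the lists and families together, 87 genes were past the thresholds (13 higher and 74 lower). Gene names, positions and promoters came from RefSeq's TAIR10.1 through locus identifiers. A ratio of pH 5.9 over pH 8.3 for a lower gene with 1 to 10 reads over both pH 8.3 libraries has an exact 95% counting interval. Alternatives were TMM factors, quantile normalization, a pseudocount of 1 CPM, a mean of at least 10 CPM, fits of fewer groups, a replicate block, no trend, weights per library, leaving out each replicate, no fold change limit and limma's treat at 1.5-fold. The weights came out equal for both libraries of a group, from 0.156 (A1(c+) pH 8.3 48 h) to 16.341 (T6(c-) pH 5.9 3 h). Added after the data were seen were fits without the 3 columns made of libraries whose names begin with A and without the T6(c-) pH 5.9 groups. Other tools were Python 3.11.15, pandas 2.3.3, numpy 2.4.6, scipy 1.17.1 and matplotlib 3.10.9.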

Additional observations from a re-analysis of the deposited data

Results flagged for a closer look

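The response of A1(c+) leaves to pH 8.3 differed between 48 h and 3 h by limma's test of the difference itself (48 h minus 3 h) for 1895 genes. For 7 described genes that were higher at pH 8.3 after 3 h the difference was negative: AT3G56360 (-3.57), GolS2 (-3.08), CAF1a (-2.91), AT4G29780 (-2.83), CML23 (-2.28), JAL34 (-2.02) and AT4G27652 (-1.75), on the log2 scale. For 9 described genes that were lower after 3 h it was positive, with FER3 at 3.76, FER1 at 6.25, CYCB2;1 at 8.23, AT3G63255 at 8.39, AT2G19920 at 8.90, PME5 at 10.55, AT2G33850 at 10.58, AT3G05600 at 11.75 and AAE2 at 11.78. These sums hold the 3 h values by which the genes were chosen. At 48 h itself AAE2 had 5 and 0.558 CPM at pH 8.3, against 0.442 and 0.246 CPM at pH 5.9, and PME5 had 71.4 and 3.3 CPM at pH 8.3, against 0.395 and 0.577 CPM at pH 5.9, so that the first pH 8.3 library at 48 h, which also held 5 genes of T6(c-), was the higher in both.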

How the results depend on the processing

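The 396 genes of the pH 8.3 response at 3 h became 207 with TMM factors, 146 with quantile normalization, 249 with a pseudocount of 1 CPM, 164 at a mean of at least 10 CPM, 934 with only the 2 groups, 808 with only the groups at 3 h, 740 without the second library labelled A1(c+) bic at 3 h, 1258 with weights per library, 1468 without a fold change limit, 4 with treat, 1382 without the 3 columns of A-prefix libraries and 104 without the T6(c-) pH 5.9 groups, whose replicates are the closest of the series. Leaving out each replicate gave 9 to 253 genes. The count of the deme difference, 0, became 481 with only its groups, 6 with the groups at 3 h, 553 with weights per library and 111 without A-prefix libraries, and 0 to 1 with a replicate left out (1 without T6(c-) pH 8.3 replicate 2). The count of the time difference, 1895, became 889 with quantile normalization, 712 at a mean of at least 10 CPM, 439 with only its groups, 0 with only the A1(c+) groups, 925 with weights per library and 898 without the T6(c-) pH 5.9 groups, and 564 to 3866 with a replicate left out. The cause of these shifts was not tested. Deviations of same-numbered replicates had low correlations over genes (r = 0.022 between the 2 groups compared, -0.085 to 0.103 for the deme and -0.141 to 0.25 for the time difference). From 2 replicates per group, these values cannot exclude that the numbers pair the samples. With the replicate block the counts were 327, 0 and 1700. Log2 fold changes that turned were those of CAB3 (0.18, and 0.0 with quantile normalization), RBCS1A (-0.11, and 0.17 with TMM factors), CLV1 (-0.10, and 0.18 with TMM factors and 0.0529 with quantile normalization) and PHO2 (-0.03, and 0.25 with TMM factors and 0.0239 with quantile normalization). With a replicate left out RBCS1A ranged from -0.2843 to 0.0594, PR5 from -1.12 to 0.031, CLV1 from -0.2308 to 0.0409, PHO2 from -0.2641 to 0.2115 and AT4G35770 from -4.76 to 1.75. Of the 60 described genes past the thresholds 40 stayed past them with TMM factors, 35 with quantile normalization and 17 without the T6(c-) pH 5.9 groups.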

Other observations

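Some lists and families not described so far had few or no genes past the thresholds at pH 8.3 after 3 h in A1(c+), where 53.1% of all genes lay below without overlap. Of 45 histone genes 34 lay below without overlap and none passed the thresholds (median log2 fold change -0.46, against -0.27 for all genes). Of 130 leucine-rich repeat receptor kinases 86 lay below without overlap and 1 fell (median -0.42), and of 43 receptor-like proteins 34 lay below and 2 fell (median -0.63). Among 77 MYB factors 3 fell and none rose (median -0.46). Of 16 genes of starch metabolism 11 lay above without overlap (68.8%, against 13.2% of all genes) and none passed the thresholds (median 0.30). Of 16 genes of the abscisic acid response 9 lay below and none passed (56.2%, median -0.26), close to all genes.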
